A study of Mus musculus with 17 samples.

Results

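Bulk RNA sequencing libraries of wild-type mice that are labelled liver and DSS were compared between day 20 and day 0. The libraries were picked by their titles, and no measured value entered that choice. They are 3 libraries labelled day 20 and 3 labelled day 0, together 6 of the 17 samples in the series. All 6 carry the same genotype label (WT), the same tissue label (liver) and the same treatment label (DSS), and only the labelled day differs. DSS usually stands for dextran sulfate sodium, a polymer given in drinking water that injures the lining of the colon. The labels do not spell it out, and they give no dose, no age or sex and no statement that day 0 preceded exposure. The rest of the series is 3 libraries labelled liver at day 10 and 8 of small intestine after sham operation or hepatectomy. The title of the series concerns a link between liver and intestinal stem cells through PEDF, the secreted protein encoded by Serpinf1.

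The liver is built mainly of hepatocytes, which make most plasma proteins, clear ammonia as urea, synthesise bile acids and oxidise drugs and fatty acids. Between them lie Kupffer cells (resident macrophages), the fenestrated endothelium of the sinusoids, stellate cells that store vitamin A, and bile duct cells. The intestinal epithelium is renewed by stem cells at the base of crypts, beside Paneth cells that secrete antimicrobial peptides, and it also holds goblet, enteroendocrine, tuft and absorptive cells.

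The markers of these tissues showed that the libraries labelled day 0 go against their tissue label. Levels are counts per 1e+06 after scaling by the trimmed mean of M values (TMM), written CPM. Alb, the serum albumin gene of hepatocytes, had 49050, 50410 and 46390 CPM in the day 20 libraries, against 235.8, 369.0 and 347.1 CPM in the day 0 libraries. Cdx2, a transcription factor that specifies intestinal epithelium, had 2.83, 1.44 and 1.78 CPM in the day 20 libraries, against 287.3, 255.9 and 236.8 CPM in the day 0 libraries. The groups did not overlap for either gene. Across 14775 genes, Spearman's rho with the mean of the sham crypts was 0.585 to 0.592 in the day 20 libraries and 0.919 to 0.932 in the day 0 libraries. With the mean of the sham epithelial cells it was 0.600 to 0.606 in the day 20 libraries and 0.888 to 0.897 in the day 0 libraries. These are descriptions across genes, which are not independent replicates. The libraries labelled day 0 therefore resemble gut epithelium, and those labelled day 20 carry the markers of liver. The labelled day and the tissue content cannot be told apart in any value below, so no difference given here can be read as an effect of DSS or of time.

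**Figure D1:**
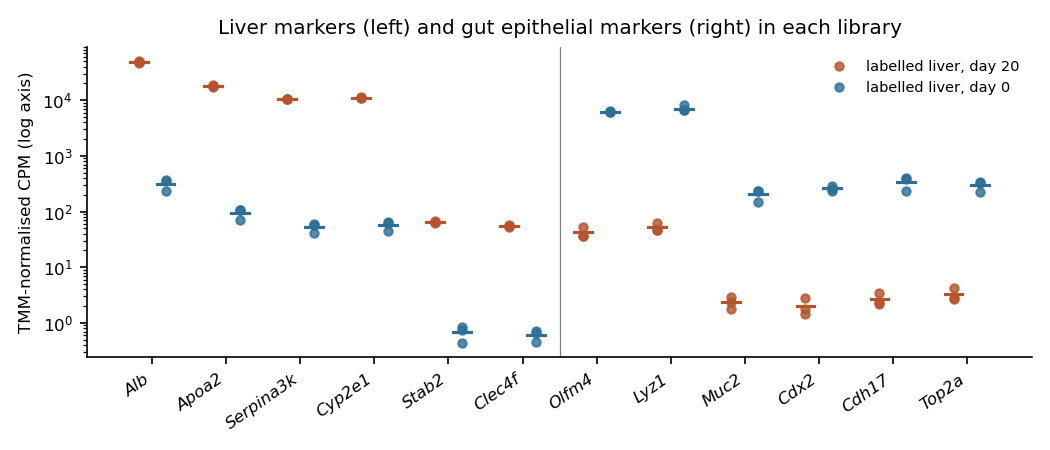
Level of 6 liver markers (left of the line) and 6 gut epithelial markers (right) in each library, as TMM-normalised CPM on a log axis. Points are libraries, 3 per group, with day 20 to the left of day 0 for each gene, and bars are group means. Alb, a liver marker, has at least 46390 CPM at day 20 and at most 369.0 CPM at day 0. The other liver markers drawn have lower levels at day 20 than Alb, and gut markers such as Cdx2 show the reverse order.

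Total counts were 39609862 to 42669857 in the day 20 libraries and 29874354 to 36717028 in the day 0 libraries. Identifiers with at least 1 count numbered 16728 to 16888 at day 20 and 19780 to 19986 at day 0. TMM factors were 0.750 to 0.758 at day 20 and 1.31 to 1.35 at day 0, so the scaling matters here. No label states that replicates are separate animals, so the p-values cover the variation among these libraries alone, and that may be technical. In bulk RNA, fewer cells of a type and less RNA per cell cannot be told apart.

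Most genes differed. Of 15023 genes tested with edgeR's quasi-likelihood test at an adjusted p under 0.05, 5524 (36.8%) were higher at day 20 and 6478 (43.1%) were lower, together 12002 (79.9%). At least 2-fold differences numbered 4175 (27.8%) higher and 4589 (30.5%) lower. The 3 libraries of each group did not overlap for 5809 genes (38.7%) with day 20 above and 6620 (44.1%) with day 20 below, so a lack of overlap sets no gene apart in this comparison. The median log2 fold change over all genes was -0.15. The split of calls rests on the scaling: with library size as the only scaling, 3618 genes were higher and 9170 lower, and the median was -0.97. Of the calls, 46.0% were higher with TMM and 28.3% with library size only. Differences beyond 5 on the log2 scale, in either direction, were found for 1979 genes, 1010 higher and 969 lower, while 3381 genes lay within 0.5 of no difference.

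**Figure D2:**
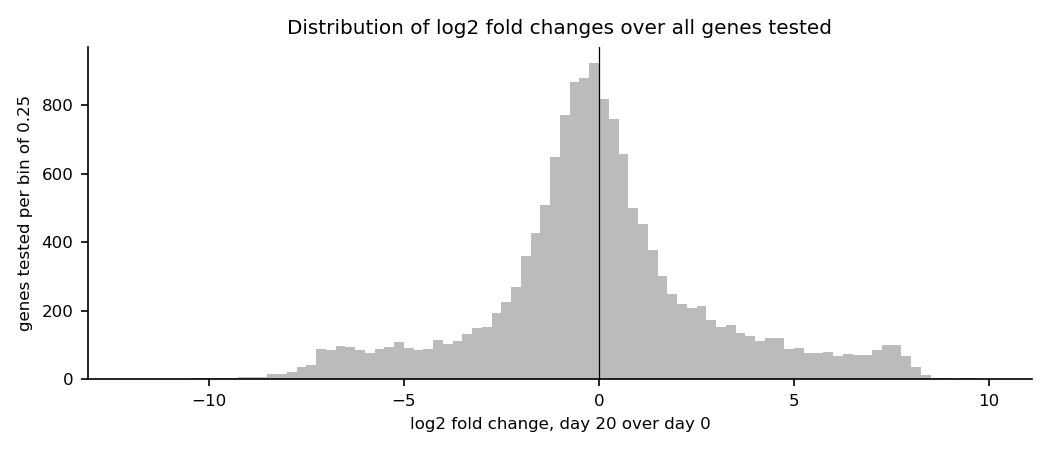
Number of genes per bin of 0.25 in log2 fold change, day 20 over day 0, for all 15023 genes tested. Besides the central peak, whose median is -0.15, there is a shoulder on each side, with 1010 genes above 5 and 969 below -5.

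Genes for the plasma proteins that hepatocytes secrete were higher at day 20 as a block. Of 20 carriers and protease inhibitors of plasma tested, 20 were higher, with a median log2 fold change of 7.40. Alb differed by 7.26 ± 0.29 (SE, adjusted p = 5.2e-08). Serpina3k, a serine protease inhibitor of mouse plasma, had 10340, 10440 and 10730 CPM in the day 20 libraries, against 41.0, 60.2 and 58.2 CPM in the day 0 libraries. The vitamin A carrier Rbp4 (7.60) and the haem scavenger Hpx (6.02) were near the top and the bottom of the list. Of 34 complement and coagulation genes, 34 were higher, with a median of 7.28. Fgb, the fibrinogen beta chain, had 4645, 4638 and 4670 CPM in the day 20 libraries, against 29.9, 50.5 and 44.3 CPM in the day 0 libraries, a difference of 6.81 ± 0.23 (adjusted p = 1.8e-08). The smallest differences in that list were those of C2 (3.84) and Cfb (4.11), components of the classical and alternative complement pathways.

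The promoters of 3 plasma protein genes and of Serpinf1 are shown because these genes were all higher at day 20. Sequences are from RefSeq (GRCm38.p6), 250 bases before to 50 bases after each gene's start, 5′ to 3′ on the gene's strand. Capitals mark CCAAT, a common promoter element known as the CCAAT box, or its reverse complement. The Alb promoter lies at chr5:90460620-90460919 (plus strand), Fgb at chr3:83049814-83050113 (minus), Serpina1c at chr12:103904901-103905200 (minus) and Serpinf1 at chr11:75422574-75422873 (minus).
Alb: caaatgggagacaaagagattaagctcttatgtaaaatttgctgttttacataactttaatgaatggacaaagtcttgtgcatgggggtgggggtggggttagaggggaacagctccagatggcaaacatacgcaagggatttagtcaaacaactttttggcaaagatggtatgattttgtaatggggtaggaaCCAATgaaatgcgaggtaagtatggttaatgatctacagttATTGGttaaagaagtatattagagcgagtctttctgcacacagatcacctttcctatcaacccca
Fgb: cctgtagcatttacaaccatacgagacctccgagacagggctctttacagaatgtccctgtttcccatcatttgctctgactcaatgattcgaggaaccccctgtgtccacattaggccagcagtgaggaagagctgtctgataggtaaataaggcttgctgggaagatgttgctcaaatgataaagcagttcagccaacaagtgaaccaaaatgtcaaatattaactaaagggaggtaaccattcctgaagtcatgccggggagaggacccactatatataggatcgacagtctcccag
Serpina1c: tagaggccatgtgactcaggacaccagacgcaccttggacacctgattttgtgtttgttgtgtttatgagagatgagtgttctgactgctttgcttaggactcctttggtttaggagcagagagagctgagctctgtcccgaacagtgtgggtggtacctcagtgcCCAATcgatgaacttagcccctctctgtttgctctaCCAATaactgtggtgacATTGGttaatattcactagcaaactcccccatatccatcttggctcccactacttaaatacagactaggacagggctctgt
Serpinf1: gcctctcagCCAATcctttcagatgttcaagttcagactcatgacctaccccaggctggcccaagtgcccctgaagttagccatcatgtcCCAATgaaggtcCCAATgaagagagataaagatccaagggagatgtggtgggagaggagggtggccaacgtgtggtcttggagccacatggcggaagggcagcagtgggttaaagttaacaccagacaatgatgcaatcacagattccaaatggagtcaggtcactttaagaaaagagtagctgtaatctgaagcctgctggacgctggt
Searched on both strands, CCAAT was in the window of 10 of 16 plasma carrier genes with an entry (62.5%), 6 of 25 complement and coagulation genes (24%), and 11096 of 27025 genes in the whole table (41.1%). Among other lists mostly higher at day 20 it was in 12 of 20 cytochrome P450 genes (60%), 5 of 13 apolipoprotein genes (38.5%), 5 of 16 bile acid genes (31.2%) and 1 of 13 acute phase genes (7.69%). Among lists mostly lower at day 20 it was in 17 of 19 mitosis genes (89.5%), 7 of 14 Paneth cell genes (50%), 5 of 10 goblet cell genes (50%) and 6 of 26 enterocyte genes (23.1%). Serpina1c, an alpha-1-antitrypsin gene with near-identical neighbours, had a level of 11880 ± 130 CPM at day 20 and 58.2 ± 13 CPM at day 0 (SD, n = 3 each). Fgb had no match in this window, which says nothing about its regulation. Other motifs searched on both strands were CAAAGTCCA for HNF4 (150 genes of the table, 0.555%), TTGCGCAA for C/EBP (56 genes, 0.207%) and CATAAA for CDX (3675 genes, 13.6%). Of these, CATAAA was in 1 plasma carrier and 5 complement and coagulation genes, and the others were in 0 members of both lists. Over the 10 lists searched, CAAAGTCCA was in 3 of 20 cytochrome P450 genes (15%), 2 of 26 enterocyte genes (7.69%) and 1 of 16 bile acid genes (6.25%), TTGCGCAA was in 1 of 13 acute phase genes (7.69%), and the share with CATAAA ran from 0% of mitosis genes to 38.5% of acute phase genes. A motif match is a description of the letters, not evidence of binding.

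Serpinf1, which encodes PEDF, was among the genes higher at day 20. It lies at chr11:75410029-75422623 on the minus strand. It had 919.7, 886.6 and 908.9 CPM in the day 20 libraries, against 2.70, 4.60 and 4.80 CPM in the day 0 libraries, and the groups did not overlap. The difference was 7.81 ± 0.23 on the log2 scale (edgeR adjusted p = 7.5e-09). The exact two-sided permutation test gave p = 0.1, which is the smallest that 3 against 3 libraries allow. The plasma carriers, set beside it, ran from 6.02 to 7.67. Of the proteins proposed to bind PEDF, the Wnt co-receptor Lrp6 was higher, at 39.6 ± 0.59 CPM at day 20 and 14.1 ± 3.8 CPM at day 0 (1.5 ± 0.19). Plxdc2 was higher too (3.87 ± 0.52), at levels under 1 CPM in both groups. Lower were Pnpla2, the adipose triglyceride lipase, at 75.7 ± 1.9 CPM at day 20 and 178.1 ± 12 CPM at day 0 (-1.23 ± 0.081), as well as the laminin receptor gene Rpsa (-2.02 ± 0.10) and the ATP synthase subunit Atp5b (-0.69 ± 0.11). Lrp5 (0.26 ± 0.27, adjusted p = 0.39) was not called, and its sign turned with library size as the only scaling (-0.55). Plxdc1, the relative of Plxdc2, was not called either (0.14 ± 0.44, adjusted p = 0.77), at levels under 1 CPM in both groups. In all, 3 of the 8 genes of the PEDF list were higher, 3 lower and 2 not called. Over all genes tested, 36.8% were higher and 43.1% lower, so this count does not set the list apart.

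Metabolic genes of hepatocytes were higher in every group examined, with few exceptions. All 20 bile acid genes tested were higher (median 6.86). Slc10a1, which takes up bile acids from blood, had 955.2, 965.9 and 962.2 CPM in the day 20 libraries, against 4.59, 5.77 and 5.57 CPM in the day 0 libraries. Cyp7a1, the rate-limiting enzyme of bile acid synthesis, was at 38 ± 2.3 CPM at day 20 and 0.558 ± 0.075 CPM at day 0 (6.08 ± 0.16, adjusted p = 4.6e-09). The receptor Fgfr4 (2.02) and the sterol exporter Abcg5 (2.06) differed least. Of 24 cytochrome P450 genes of drug and fatty acid oxidation, 22 were higher and 2 lower (median 7.57). Cyp2e1, which oxidises ethanol and paracetamol, had 11030, 11320 and 10860 CPM in the day 20 libraries, against 45.7, 62.9 and 64.7 CPM in the day 0 libraries. The 2 lower members were Cyp2c65 (-4.51 ± 0.28) and Cyp2c66 (-1.38 ± 0.25), whose family holds close copies, so their counts are uncertain.

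Glucose and amino acid genes were higher in 25 of 25 cases (median 7.38). The smallest difference was that of the liver form of pyruvate kinase, Pklr (2.47). Of 19 apolipoprotein and lipoprotein genes, 18 were higher (median 7.25). Apoe, a ligand for lipoprotein receptors, was at 38860 ± 1490 CPM at day 20 and 185.2 ± 39 CPM at day 0. Of 27 targets of the fatty acid sensor PPAR-alpha, 27 were higher, but with a smaller median of 2.87. Acaa1b, a thiolase of peroxisomal fatty acid oxidation, differed by 6.71 ± 0.11, and Cpt1a, the gate of mitochondrial fatty acid import, by 0.78 ± 0.27 (adjusted p = 0.025). The call of Cpt1a was lost without any one of the day 20 libraries (adjusted p = 0.051 to 0.064) and its sign turned with library size as the only scaling (-0.04). Ppara itself was at 192.7 ± 4.0 CPM at day 20 and 7.83 ± 0.62 CPM at day 0.

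Urea cycle and ammonia genes differed widely among themselves. Of 12 genes, 11 were higher and 1 was not called (median 3.15). Arg1, the arginase that releases urea, had 2643, 2695 and 2632 CPM in the day 20 libraries, against 13.7, 19.3 and 19.1 CPM in the day 0 libraries (7.26 ± 0.18, adjusted p = 3.3e-09). Cps1, the first enzyme of the cycle and one that enterocytes also express, had 2096, 2203 and 2191 CPM in the day 20 libraries, against 307.4, 1609 and 1546 CPM in the day 0 libraries. All 3 day 20 values lay above all 3 day 0 values, but the difference was not called (0.91 ± 0.50, adjusted p = 0.12). Replicate 1 of day 0 sets that spread. Cps1 was called higher in each fit that left out 1 day 0 library, by 0.58 without replicate 1 (adjusted p = 8.2e-09), 1.33 without replicate 2 and 1.27 without replicate 3, and also with RLE size factors (1.04, adjusted p = 0.036), so its call is not settled.

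Genes of the acute phase response, by which the liver raises secreted defence proteins, did not move as one block. Of 17, 15 were higher and 2 lower, with a median of 4.51, under that of the other plasma protein lists. Hamp, the iron hormone hepcidin, had 698.1, 699.1 and 695.9 CPM in the day 20 libraries, against 1.68, 2.22 and 2.01 CPM in the day 0 libraries (8.47 ± 0.13, adjusted p = 1.1e-09). Saa1, serum amyloid A, had 168.6, 109.9 and 132.2 CPM in the day 20 libraries, against 42.1, 65.1 and 62.6 CPM in the day 0 libraries, a difference of 1.27 ± 0.20 (adjusted p = 0.00037). Its near-identical neighbour Saa2 (1.09) and the siderophore binder Lcn2 (0.74) were also among the smallest. With library size as the only scaling, Saa1 (0.46) and Saa2 (0.28) were no longer called and Lcn2 turned to -0.08. The metallothionein genes Mt1 (-2.93 ± 0.12) and Mt2 (-3.33 ± 0.18), which encode zinc-binding proteins, were the lower members.

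Zonation, sex and growth hormone genes followed the liver lists. Of 14 genes of hepatocytes around the central vein, 11 were higher and 1 lower, and of 14 around the portal vein, 11 were higher and 2 lower. Glul, the central glutamine synthetase, was at 333.4 ± 17 CPM at day 20 and 28.6 ± 2.1 CPM at day 0 (3.54 ± 0.093). Axin2, a Wnt feedback gene expressed in crypts as well, was lower (-3.79), as was Cdh1 (-3.10), which encodes E-cadherin. Of 15 genes of the growth hormone and IGF axis, 13 were higher and 2 lower, Igf1 by 7.52 ± 0.15 and the growth hormone receptor Ghr by 6.12 ± 0.26. Major urinary protein genes, a family of near-identical copies on chromosome 4, took 8.99 to 9.65% of all counts in the day 20 libraries and 0.0462 to 0.0675% in the day 0 libraries. Of 20 genes with sex-biased or sex-linked expression, 17 were higher and 2 lower. Hsd3b5, a steroid enzyme of male mouse liver, was at 399.5 ± 0.96 CPM at day 20 and 1.24 ± 0.32 CPM at day 0. Xist, the RNA that coats the inactive X chromosome, was lower at day 20 (1.5 ± 0.25 CPM) than at day 0 (22 ± 3.5 CPM), and the Y-linked Ddx3y was higher (60.1 ± 2.8 CPM at day 20 and 18 ± 5.6 CPM at day 0).

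Cells of the sinusoid were represented at day 20. Of 15 Kupffer cell genes, 15 were higher (median 5.93), of 15 sinusoidal endothelial genes, 15 (median 6.05), and of 16 stellate and fibroblast genes, 15 (median 6.02). Clec4f, a lectin receptor of mouse Kupffer cells, had 56.5, 51.9 and 54.0 CPM in the day 20 libraries, against 0.457, 0.669 and 0.718 CPM in the day 0 libraries (6.46 ± 0.18, adjusted p = 5.2e-09). Stab2, the endothelial receptor that clears hyaluronan, had 65.9, 68.2 and 62.6 CPM in the day 20 libraries, against 0.436, 0.857 and 0.743 CPM in the day 0 libraries. The proteoglycan Dcn was at 206.7 ± 11 CPM at day 20 and 1.33 ± 0.51 CPM at day 0. Vipr1, a neuropeptide receptor, was the lower member of the stellate list (-1.49 ± 0.28). Bile duct genes went the other way: of 14, 2 were higher and 11 lower (median -5.77). Those lower included Epcam (-7.02) and Krt19 (-6.77), which all gut epithelium expresses, and those higher were Spp1 (7.30), which encodes osteopontin, and Tm4sf4 (2.88).

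Epithelial genes of the gut were lower at day 20, list after list. Of 20 crypt stem cell genes, 17 were lower and 1 higher (median -4.63). Olfm4, a secreted glycoprotein of crypt base cells, had 53.6, 35.8 and 37.1 CPM in the day 20 libraries, against 6099, 6235 and 6360 CPM in the day 0 libraries. Lgr5, the receptor that marks cycling stem cells, was at 13.3 ± 0.58 CPM at day 20 and 88.1 ± 2.3 CPM at day 0 (-2.73 ± 0.088), a smaller difference than that of Ascl2, the stem cell transcription factor (-7.09 ± 0.20). Lgr5 is also expressed by hepatocytes around the central vein.

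Paneth, goblet and enteroendocrine genes were lower by larger medians than stem cell genes. Of 20 Paneth cell genes, 19 were lower (median -6.73), of 19 goblet cell genes, 18 (median -6.26), and of 19 enteroendocrine genes, 19 (median -7.00). Lyz1, the lysozyme of Paneth cells, had 61.5, 47.2 and 46.5 CPM in the day 20 libraries, against 8064, 6640 and 6574 CPM in the day 0 libraries. The alpha-defensin genes, a family of near-identical copies, took 0.0537 to 0.0722% of all counts at day 20 and 10.4 to 12% at day 0. Muc2, the gel-forming mucin of goblet cells, had 2.96, 2.42 and 1.78 CPM in the day 20 libraries, against 149.6, 235.5 and 229.7 CPM in the day 0 libraries. Sst, the hormone somatostatin, had 0 counts in each day 20 library, against 1578 counts over the day 0 libraries. Taking a floor of 3 counts per library, it was at least 119.8-fold lower at day 20. Habp2, a plasma protease that liver makes, was the Paneth list's higher member (2.46 ± 0.087). Of 13 tuft cell genes, 10 were lower and 2 higher, with a median of -3.34 that is smaller in size than that of the stem cell list.

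Absorptive genes were split. Of 30 enterocyte genes, 20 were lower, 7 higher and 3 not called (median -4.92). Cdh17, the intestinal cadherin, had 3.47, 2.42 and 2.19 CPM in the day 20 libraries, against 237.9, 394.2 and 392.3 CPM in the day 0 libraries (-6.99 ± 0.28, adjusted p = 5.0e-08). Fabp1, a fatty acid binder that liver expresses too, was at 9805 ± 360 CPM at day 20 and 68.4 ± 6.5 CPM at day 0. Slc10a2, the ileal bile acid transporter also found in bile ducts, was at 20.4 ± 1.3 CPM at day 20 and 1.48 ± 0.077 CPM at day 0 (3.78 ± 0.15).

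Proliferation genes were lower in nearly every case. Of 24 mitosis genes, 24 were lower (median -6.20), and of 27 DNA replication genes, 25 were lower and 1 higher (median -4.14). Top2a, which untangles replicated DNA, had 4.26, 2.72 and 2.84 CPM in the day 20 libraries, against 224.0, 333.0 and 332.5 CPM in the day 0 libraries. Mki67, the proliferation antigen, was at 2.09 ± 0.078 CPM at day 20 and 91.3 ± 18 CPM at day 0. Mcm10, a replication initiation factor, was the higher member, at 134.0 ± 2.1 CPM at day 20 and 66.4 ± 7.4 CPM at day 0 (1.01 ± 0.097), a call lost with library size as the only scaling (0.19, adjusted p = 0.10). Of 21 Wnt pathway genes, 14 were lower and 3 higher, beside 43.1% and 36.8% of all genes tested. The feedback lipase Notum differed most in the upward direction (6.55 ± 0.33).

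**Figure D3:**
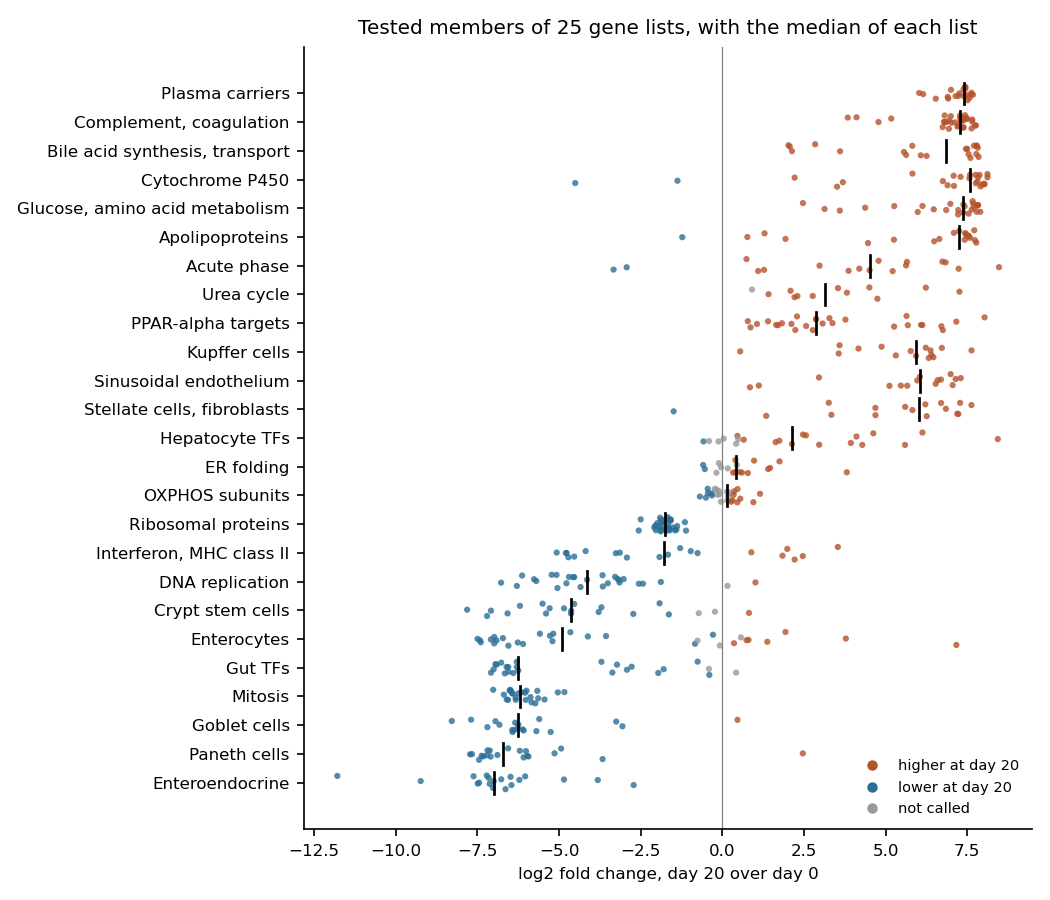
Log2 fold change, day 20 over day 0, of each tested member of 25 gene lists (points, coloured by call at an adjusted p under 0.05), with the median of each list as a black bar. Medians of hepatocyte lists run from 2.13 (transcription factors) to 7.57 (cytochrome P450), those of sinusoid lists lie near 6, and those of the gut epithelial lists drawn lie between -4.63 (stem cells) and -7.00 (enteroendocrine cells).

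Genes written in pairs of a liver form and a gut form separated in some pairs. Not each pair holds a true form of each tissue. Hp, written as the gut form beside Hpx, is in the acute phase list, and Fabp1, written as a liver form, is in the enterocyte list. The tally describes the pairs as written. Of 15 pairs, 7 had the liver form higher and the gut form lower, 4 had both higher, 1 had both lower, and 3 had a form that was not called or not tested. The ileal transporter Slc10a2, for example, was higher along with its liver counterpart Slc10a1. Pklr, the liver pyruvate kinase, was at 109.2 ± 6.5 CPM at day 20 and 19.8 ± 2.3 CPM at day 0, and its partner Pkm was at 14.3 ± 0.58 CPM at day 20 and 231.6 ± 19 CPM at day 0 (-4.02 ± 0.098, adjusted p = 3.1e-09). The same order was found for the methionine adenosyltransferases Mat1a (7.22) and Mat2a (-0.69) and for the alkaline phosphatases Alpl (5.94) and Alpi (-6.92). These 3 pairs are examples of the 7, chosen after their values were seen.

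Transcription factors of hepatocytes differed by unequal amounts. Of 21 factors of hepatocytes, 15 were higher, 1 lower and 5 not called (median 2.13). Hnf4a, the nuclear receptor needed in both tissues, had 199.7, 203.2 and 207.9 CPM in the day 20 libraries, against 153.4, 336.6 and 322.5 CPM in the day 0 libraries. These groups overlapped (-0.41 ± 0.25, adjusted p = 0.17). Without replicate 1 of day 0 it was called lower (-0.57, adjusted p = 4.4e-09), as it was with library size only (-1.23, adjusted p = 0.0026). Onecut1 (also HNF6) had 70.1, 71.8 and 66.5 CPM in the day 20 libraries, against 0.0623, 0.376 and 0.149 CPM in the day 0 libraries (8.43 ± 0.35, adjusted p = 6.0e-08). Cebpa was higher too (4.11 ± 0.17). Of 24 factors of gut epithelium, 22 were lower and 0 higher (median -6.27), Cdx2 by -7.00 ± 0.23.

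Of 33 ribosomal protein genes, 33 were lower (median -1.74), and 33 were lower with library size as the only scaling too (median -2.56). Calls in 2 other housekeeping groups depended on the scaling. Of 25 subunits of oxidative phosphorylation, 9 were higher and 6 lower (median 0.14), and with library size as the only scaling the median was -0.67 with 1 higher. Without replicate 1 of day 0, 16 were higher. Of 18 genes of protein folding in the endoplasmic reticulum, 11 were higher and 2 lower (median 0.42), and the median was -0.40 with 4 higher under library size only. No direction is given for oxidative phosphorylation or protein folding.

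The level of each tissue's markers in the opposite group was described for liver and gut lists. Over all tested members, the highest day 0 mean was 1.54% of the day 20 mean for plasma carriers and 6.98% for complement and coagulation genes. It was 24.6% for bile acid genes and 2269% for cytochrome P450 genes. For liver lists, medians were taken over members under 1 CPM in the sham crypts, a limit that also narrows the ranges. The day 0 mean was then a median of 0.653% of the day 20 mean over 15 plasma carriers (0.490 to 1.54%), 0.631% over 22 complement and coagulation genes (0.460 to 0.932%), 0.517% over 13 bile acid genes and 0.426% over 11 cytochrome P450 genes. Alb stood at 0.653%, with 0.15 and 0.291 CPM in the sham crypts, so gut expression is small beside its day 0 level. For genes whose day 0 level is itself under 1 CPM, the limit does not make gut expression small beside it. Sinusoid genes had medians of 1.33% over 13 Kupffer cell genes, 1.06% over 12 endothelial genes and 1.27% over 13 stellate genes. Of the lists under this limit, acute phase genes spread most, from 0.282% for Hamp to 59.9% for Lcn2 over 12 genes. Saa2 stood at 46.8%, and it had 0.189 and 0.0546 CPM in the sham crypts. In the other direction, the day 20 mean was a median of 0.951% of the day 0 mean over 20 Paneth cell genes, 1.3% over 19 goblet cell genes, 0.776% over 19 enteroendocrine genes and 1.36% over 24 mitosis genes. Stem cell genes stood at 4.03% and DNA replication genes at 5.66%. No limit on expression in the other tissue was set for these gut lists. These percentages rest on TMM scaling, with factors of 0.750 to 0.758 at day 20 and 1.31 to 1.35 at day 0. In CPM of all counts, those of the liver lists are higher and those of the gut lists lower. The sizes in the opposite directions are therefore not compared. The source of these low levels was not tested.

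**Figure D4:**
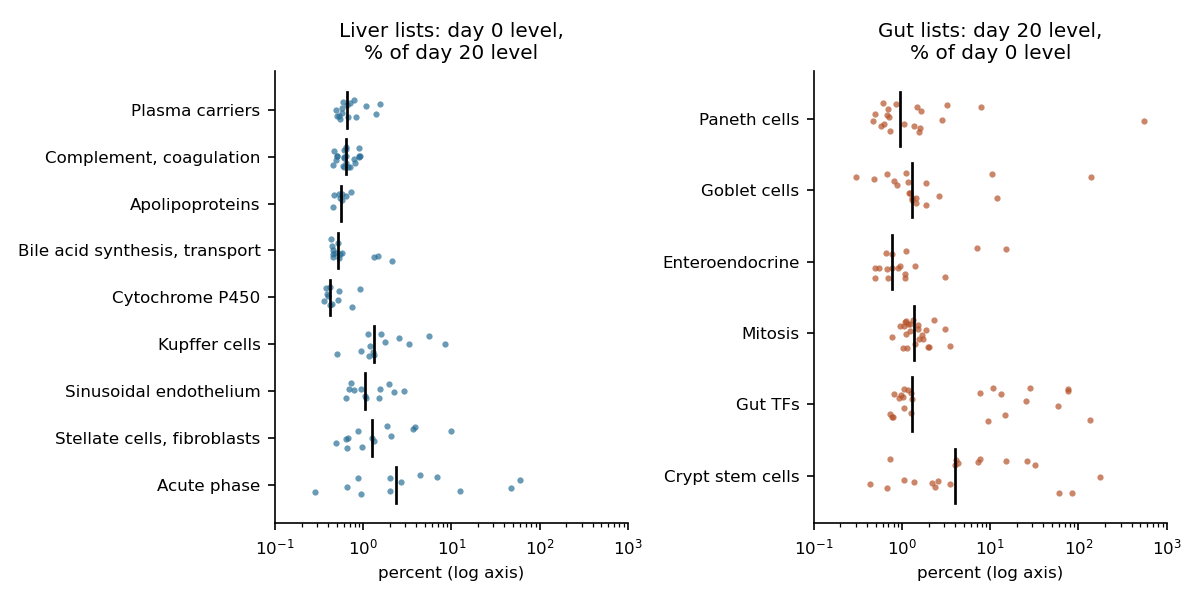
Left, mean level at day 0 as percent of the day 20 mean for tested members of liver lists under 1 CPM in the sham crypts, and right, mean level at day 20 as percent of the day 0 mean for tested members of gut lists. Points are genes on a log axis and bars are medians, which run from 0.426 to 2.37% on the left and from 0.776 to 4.03% on the right, and genes with 0 counts are left out of the points only. Levels are TMM-normalised CPM, and the percentages depend on that scaling.

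Replicate 1 of day 0 stood apart from its group. Its counts differed from those of replicates 2 and 3 by a chi-square of 94.0 and 85.9 per degree of freedom, against 7.87 between replicates 2 and 3, and 6.22 to 9.56 between day 20 libraries. No pair of libraries agreed within sampling noise. The difference ran with transcript length over 9538 genes (Spearman's rho -0.62, across genes). With genes in 4 equal bins from the shortest to the longest transcripts, the median log2 ratio to replicates 2 and 3 was 0.23, 0.14, -0.17 and -0.47. In 781 genes, its level was under 50% of theirs, against 3 genes for replicate 2 over replicate 3. Cps1, Hnf4a, Cdh17 and Top2a are among the genes whose day 0 spread comes from this library. Without it, 6360 genes were higher and 6769 lower.

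**Figure D5:**
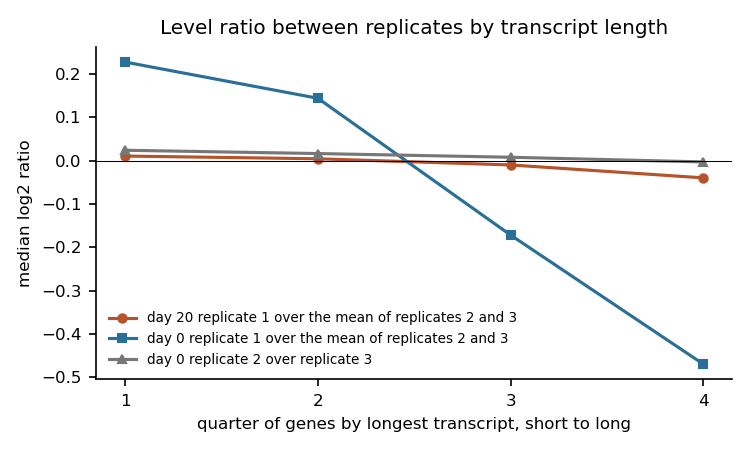
Median log2 ratio between replicate libraries of one group, by 4 equal bins of genes ordered by the length of the longest annotated transcript. Day 20 replicate 1 (circles) and day 0 replicate 2 over 3 (triangles) stay within 0.04 of 0, and day 0 replicate 1 (squares) falls to -0.47 in the bin of the longest transcripts.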

How the data were processed

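RNA was extracted from tissue labelled liver and sequenced in bulk, per the labels' protocols. Per the submitters' processing notes, STAR and Partek were used with mm10, without versions. The deposited liver-labelled files hold whole counts per numeric gene identifier, and no counting program is named for them. For the intestine the authors deposited estimated counts by symbol (expected counts), used here only as CPM in the 4 sham libraries set beside the 6. Of 24594 identifiers, 24570 (99.9%) matched RefSeq symbols (GRCm38.p6, the same assembly as mm10), and the 24 unmatched ones held 3.93 to 4.66% of counts at day 20 and 6.32 to 9.17% at day 0. A single one of them held most of this, 3.81 to 4.55% at day 20 and 6.31 to 9.17% at day 0, the largest share in each library. The unmatched identifiers stayed in library sizes in the results given, and leaving them out is one of the alternatives. Coordinates are 1-based.

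The 6 libraries were fitted in R 4.3.3 with edgeR 4.0.16: TMM scaling, a filter of low counts (filterByExpr, minimum count 10, minimum total 15), a quasi-likelihood F test, Benjamini-Hochberg adjustment and calls at an adjusted p under 0.05. SE is the log2 fold change divided by the square root of F. Printed levels were rounded to 4 digits or fewer. The fit was run on simulated counts in which few genes changed, by modest known folds. The differences found here are far more numerous and larger, so that run does not cover them. Gene lists (43) were described by counts and medians, with no set test. The rule that picks the members uses only titles, but the members and lists were chosen with earlier results of these data known. Genes named are those of the PEDF and tissue-pair lists, cell type markers, the 8 largest rises and 8 largest falls, and up to 5 members per list with the smallest p with up to 3 in the opposite direction and up to 2 not called, besides members at the ends of a list, which were chosen after their values were seen. Some genes that the rule allows are not reported here. The promoter motif marked was chosen after earlier results were seen.

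The replicate number was not a block in the main fit, and whether it pairs the samples is not known. Same-numbered libraries of the groups did not deviate together, which cannot decide this because the groups differ in tissue content. Alternatives were DESeq2 1.42.0, RLE size factors, library size only, no filter, a stricter filter (1 CPM or more in all 3 libraries of 1 group, with their mean 5 CPM or more), the block, all 9 liver-labelled libraries, unmatched identifiers left out, and each library left out. Strand in counting is not stated, so counts are uncertain for named genes that overlap another annotated gene: Abcg5, Acaa1b, Alas2, Alpi, Arg1, Arntl, Atp5b, Bcas1, Cd74, Cfb, Ciita, Clps, Cpt1a, Ddx3y, Fam3b, Ghr, Glul, Gzma, Habp2, Hnf4a, Igf1, Lgr5, Lrp5, Lrp6, Mat2a, Mup7, Onecut1, Pklr, Pkm, Plxdc1, Rora, Rpsa, Serpina12, Stab2, Top2a and Xist. They are also uncertain for the near-identical Mup, Defa, Serpina1, Cyp2c and Saa families. Plots were made with matplotlib 3.10.9 under Python 3.11.15.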

Additional observations from a re-analysis of the deposited data

How the results depend on the processing

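With library size as the only scaling, 3618 genes were called higher and 7356 at least 2-fold lower, and with the stricter filter 2782 were called at least 2-fold higher. The other counts over all genes stayed within 1.5 times under each alternative run. Leaving out each library in turn gave 5231 to 6360 genes higher and 6010 to 6769 lower, with the most in each direction without replicate 1 of day 0. Serpinf1 kept its direction and its call under each alternative run.

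Counted in the direction of most of its calls, the number of members called changed by more than 1.5 times for 2 of 43 gene lists, oxidative phosphorylation and protein folding. With library size only these had 1 and 4 members higher (23 and 11 lower), and for oxidative phosphorylation leaving out each library gave 6 to 16, with 16 without replicate 1 of day 0. In the opposite direction, library size only gave 3 enterocyte genes higher (7 with TMM), and 5 hepatocyte transcription factors, 5 clock genes and 4 pericentral genes lower (1, 2 and 1 with TMM). Medians changed sign with library size only for the PEDF list (-0.61), oxidative phosphorylation (-0.67) and protein folding (-0.40), and the summed level of protein folding genes turned to -0.42 in CPM of all counts. The T and NK cell list, whose median was -0.03, turned to 0.051 with RLE, to 0.063 with all 9 libraries, and with a library left out ran from -0.12 to 0.47. Of 97 genes named and tested besides Serpinf1, 88 kept their direction and their side of the threshold under each alternative run that tested them. The stricter filter tested 93 of the 97. The call of Cps1 changed under 6 alternatives, among them the block (1.21, adjusted p = 0.042). Sign changes were those of Cpt1a (-0.042), Lcn2 (-0.077), Lrp5 (-0.55) and Plxdc1 (-0.67) with library size only, and of Plxdc1 with a library left out (-0.19, without replicate 2 of day 20, to 0.50). The cause was not tested.

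With the replicate number as a block, 5394 genes were higher and 6228 lower. The labels give the same numbers in each group. Deviations of same-numbered libraries correlated at 0.0033, 0.0017 and -0.022. Because the groups differ in tissue content, these correlations cannot decide whether the numbers pair the samples. Where a group was left with 2 libraries, its spread was pooled with that of the other. The deviation of replicate 1 of day 0 widens the spread of long transcripts, and genes near 1 CPM rest on few counts.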

Other observations

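Genes with a circadian rhythm vary with the hour of sampling in both tissues. Of 19, 14 were higher at day 20, 2 lower and 3 not called (median 1.21). Over all genes tested, 36.8% were higher and 43.1% lower. With library size as the only scaling, 10 of the clock genes were higher and 5 lower (median 0.39). Rora, a nuclear receptor that activates Arntl, was at 98.5 ± 3.1 CPM at day 20 and 1.22 ± 0.015 CPM at day 0. Hlf, a clock output factor, was higher (7.02 ± 0.22), and Arntl, the core activator, was lower (14.6 CPM at day 20 and 36.6 CPM at day 0). No hour of sampling is given in the labels, so the part of the time of day in these values was not tested.

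Interferon and antigen presentation genes were split, 6 of 20 higher and 14 lower, beside 36.8% and 43.1% of all genes tested. Cd74, the invariant chain of MHC class II, had 102.8, 88.9 and 99.3 CPM in the day 20 libraries, against 2661, 2759 and 2640 CPM in the day 0 libraries (-4.79 ± 0.11). Its regulator Ciita was lower as well (-5.08 ± 0.22), whereas Ifit3, an antiviral gene induced by type I interferon, was higher (3.54 ± 0.21).

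Some markers of other cells were detected in both groups. At day 20, 6 of 9 mast cell genes and 7 of 13 exocrine pancreas genes had 0 counts in all libraries, against 0 and 2 at day 0. Of 11 T and NK cell genes tested (16 in the data), 3 were higher and 4 lower. Gzma, a cytotoxic granule protease, was at 0.390 ± 0.19 CPM at day 20 and 2.91 ± 0.26 CPM at day 0. Of 7 B and plasma cell genes tested (11 in the data), 4 were higher and 2 lower, and of 4 neutrophil genes tested (11 in the data) 3 and 1. The summed level of the 11 neutrophil genes was 2.91 CPM at day 20 and 4.72 CPM at day 0. Of 7 smooth muscle genes tested (8 in the data), 6 were higher and 0 lower, and of 3 erythroid genes tested (5 in the data) 3 and 0. For comparison, 36.8% of all genes tested were higher and 43.1% lower. Alas2, the haem synthesis enzyme of red cell precursors, was at 176.5 ± 4.5 CPM at day 20 and 0.768 ± 0.19 CPM at day 0. Of 4 exocrine pancreas genes tested (13 in the data), 3 were higher and 1 lower. The lower was the lipase cofactor Clps, at 6.82 ± 1.4 CPM at day 20 and 254.8 ± 30 CPM at day 0. Only Kit of the mast cell list was tested (-2.58 ± 0.27), and stem and progenitor cells also express it. Of 17 genes tested that mark regions of the gut (22 in the data), 7 were higher and 10 lower.

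The largest rises by the naming rule were those of Efemp1, Cib3, Hamp, Onecut1, Mup7, Fitm1, Mup6 and Serpina12, with log2 fold changes of 8.35 to 8.96. Efemp1, an extracellular matrix protein gene, had 10.5, 14.2 and 13.2 CPM in the day 20 libraries, against 0, 0.0209 and 0.0495 CPM in the day 0 libraries, which is 3 counts in all at day 0. Besides Sst, the largest falls were Depdc1b, Map3k9, Fam3b, Pla2g2f, Gcnt3, Bcas1 and Sidt1. Depdc1b and Map3k9 had 0 counts in each day 20 library and were at least 64.5-fold and at least 57.0-fold lower, taking 3 counts per library as the floor.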
